A study of Mus musculus with 6 samples.

Results

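Immediate early genes are switched on within minutes of a stimulus from factors already present in the cell, so that no new protein has to be made first. Signals from growth factors, stretch or stress pass through MAP kinases to the serum response factor and its partners and to CREB on the promoters of these genes, and the products are largely transcription factors that alter a later wave of genes. FOS and JUN proteins pair through leucine zippers to form AP-1, while DUSP1 and ZFP36 close the loop by switching off MAP kinases and by destroying short-lived mRNAs. The same genes are known to rise during warm enzymatic digestion of solid tissue, the step by which mammary cells are released for sorting. The 10 genes described here were listed by symbol for that property: Fos, Fosb, Jun, Junb, Jund, Egr1, Atf3, Ier2, Dusp1 and Zfp36. They were 10 of the 55291 symbols in the count tables, and all 10 were among the 17268 genes that passed the expression filter.

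RNA was sequenced from 6 libraries of sorted mammary cells, 2 in each of 3 groups. Every library came from Adgra3-lz/+ mice aged 6 weeks, in puberty, in which a lacZ cassette in 1 Adgra3 allele fuses β-galactosidase to Gpr125, the adhesion receptor encoded by this gene, so that the reference cells carry the cassette too. Both abdominal glands of 5 mice were pooled for each library, cut at the lymph node, and digested with collagenase and hyaluronidase for 6 to 8 h; cells bearing CD31, CD45 or Ter119 were removed, and the rest were sorted for high CD49f (integrin α6) and for cleavage of FDG, a substrate that fluoresces when β-galactosidase cuts it. Gpr_TEB and Gpr_nipple are FDG-positive cells of the TEB-distal part (holding terminal end buds, the growing duct tips) and of the nipple-proximal part, and Gpr_neg are FDG-negative cells to which the labels give no region. Both Gpr_neg libraries served as the reference of both Gpr125+ populations, so the comparisons with them are not independent. No library of undigested tissue was analysed here, and a replicate is a pool of mice, so p-values measure the spread between these pools.

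Total counts were 20134890 to 37296640 per library, and 3 counts, the lowest level taken as seen, corresponded to 0.0804 to 0.149 CPM (counts scaled to a common library total, with TMM factors). Adgra3 did not follow the labels: its level was 35.7 and 18.6 CPM in the libraries labelled Gpr125-negative, 15.0 and 4.83 for the TEB-distal pair and 19.2 and 12.3 for the nipple-proximal pair, so that every direction below is one against "the libraries labelled Gpr125-negative". Its log2 fold change against them was -1.45 for TEB-distal cells (SE 0.92, adjusted p = 0.982, edgeR's quasi-likelihood test). For nipple-proximal cells it was -0.78 (SE 0.90), with overlapping groups. Neither difference passed the test. A pair, in what follows, is the 2 libraries of a group in the order of their replicate numbers. Counts do not separate the lacZ allele from the intact allele. Library make-up differed as well. Summed over 12 endothelial markers, the level was 1440 and 988 CPM in the libraries labelled Gpr125-negative, 19.6 and 24 for the TEB-distal pair and 273 and 30.2 for the nipple-proximal pair; Robo4 was at 0 counts in both TEB-distal libraries, Vwf in Gpr_neg 2 and Tek in Gpr_nipple 2. The sum of 12 basal mammary markers was lowest in the libraries labelled Gpr125-negative (3393 and 3554 CPM), 4017 and 23031 for the TEB-distal pair and 9449 and 14952 for the nipple-proximal pair, and none of the 12 was at 0 in any library. Sums over 12 luminal markers were 1462 to 2940 CPM, over 12 leukocyte markers 93.2 to 315, over 8 pericyte markers 1.67 to 27.9, and over 10 fibroblast markers 64 in Gpr_neg 1 and 533 to 1275 in the other 5 libraries, where Postn alone was 451 to 1213. Among their defining genes, Elf5 was at 0 counts in 3 libraries, Rgs5 in 3, Mfap5 in Gpr_neg 1 and Col1a1 in Gpr_neg 2. In RNA from pooled cells, fewer cells of a type and less RNA per cell cannot be told apart.

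The upstream DNA of 4 members is shown because each holds letters that the inputs of this pathway can read: the CRE that CREB binds, its core TGACG, the CArG box of the serum response factor, the EGR site, or a TATA box. The sequences are from RefSeq on GRCm38.p6, read 5′ to 3′ along the strand of the gene and ending before its start, with every match to these motifs in capitals. For Zfp36, whose start differs between annotations, only the bases around the CArG box are given.
Fos (chr12:85473740-85473889, plus strand): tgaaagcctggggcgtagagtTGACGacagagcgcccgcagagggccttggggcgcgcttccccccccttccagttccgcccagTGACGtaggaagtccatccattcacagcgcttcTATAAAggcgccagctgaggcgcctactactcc
Dusp1 (chr17:26508520-26508672, minus strand): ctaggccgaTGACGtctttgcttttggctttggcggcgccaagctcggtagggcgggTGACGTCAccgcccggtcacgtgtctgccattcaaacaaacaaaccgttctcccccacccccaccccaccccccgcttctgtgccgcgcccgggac
Fosb (chr7:19310052-19310195, minus strand): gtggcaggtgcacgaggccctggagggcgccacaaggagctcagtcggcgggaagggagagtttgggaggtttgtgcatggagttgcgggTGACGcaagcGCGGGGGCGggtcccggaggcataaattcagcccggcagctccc
Zfp36 (chr7:28379267-28379296, minus strand): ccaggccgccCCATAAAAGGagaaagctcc
RefSeq windows from 250 bases before to 50 bases after the start were given for 8 of the 10 members and for 32851 promoters in all, and both strands were searched. Egr1 and Ier2 had no window, so their promoters were not searched. The CRE core TGACG stood in 5 of the 8 windows (Atf3, Dusp1, Fos, Fosb and Junb) and in 20.8% of all windows. The whole CRE, TGACGTCA, was found in Dusp1 alone and in 1.79% of all windows, and it contains the core on both strands. Among the 8 windows the CArG box (CC, a run of A or T, then GG) was found in Zfp36 alone, where it began 58 bases upstream, and it was in 1.63% of all windows. The EGR site GCGNGGGCG was present in Fosb and Zfp36 and in 5.55% of all windows, and TATAAA in Fos and Junb and in 13.6%. The AP-1 site, written TGANTCA with C or G at N, was in 0 of the 8 windows and in 5.2% of all. A match is a run of letters in this window and not a measured site, and a motif absent here may lie outside the window.

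All 10 genes were well above the detection limit in every library, and together they took 0.212% to 0.299% of all counts. Their summed level was 2402 and 2491 CPM in the libraries labelled Gpr125-negative, 2022 and 2846 for the TEB-distal pair, and 2946 and 3372 for the nipple-proximal pair (means 2446 ± 62.8, 2434 ± 583 and 3159 ± 301, SD, n = 2). Both nipple-proximal libraries lay above the other 4, while the TEB-distal libraries held the lowest value and the third highest. This order was lost without TMM factors: as a share of all counts Gpr_neg 1 was highest, at 0.299%, followed by Gpr_nipple 1 (0.298%), Gpr_TEB 2 (0.286%) and Gpr_nipple 2 (0.284%). Levels of different genes were compared per kilobase of exon. By the median over the 6 libraries, Atf3 stood highest (199 CPM per kb), followed by Jun (175), Dusp1 (142), Ier2 (139.6), Fos (108), Junb (76.8), Egr1 (66.7), Zfp36 (48.2), Jund (21.6) and Fosb (1.68). The first 7 steps of this order are not separated: each gene from Atf3 to Egr1 was above the next in only 3 or 4 of the 6 libraries, whereas Zfp36 exceeded Jund, and Jund exceeded Fosb, in 6 of 6. An antisense gene covers 877 of the 1668 exon bases of Jund. If reads there were not counted, its level per kilobase is too low and its place below Zfp36 is uncertain. Among 16912 genes ranked by CPM per kb, the 8 members other than Jund and Fosb ranked between 135 and 1443 in every library, and Fosb between 7264 and 10307.

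**Figure D1:**
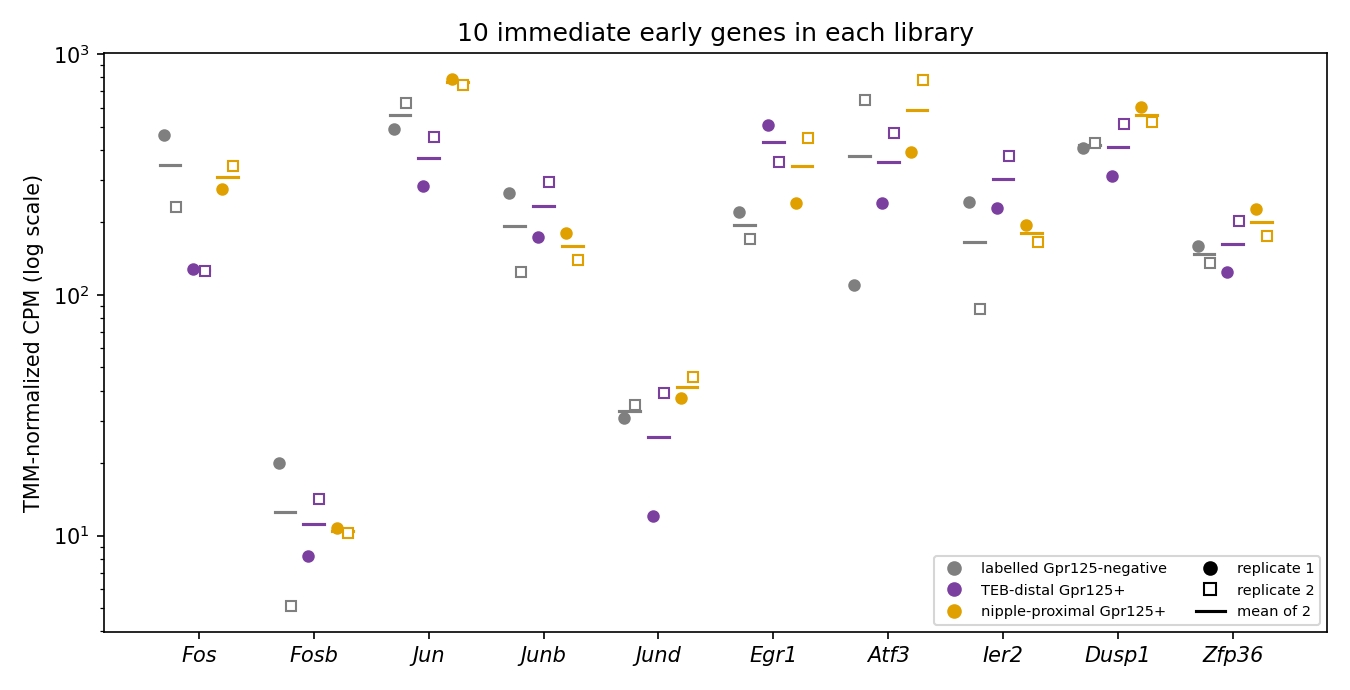
TMM-normalized CPM (log axis) of the 10 genes in each of the 6 libraries; filled circles are replicate 1, open squares replicate 2 and bars the mean of 2, in grey for the libraries labelled Gpr125-negative, purple for TEB-distal and yellow for nipple-proximal Gpr125+ cells. Fos is near 126 to 129 in both TEB-distal libraries and at 231 to 459 in the other 4, and Atf3 has the widest range, 109.8 to 784 CPM.

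Fos, the founding member of the FOS family (chr12:85473890-85477273), was the member that set the TEB-distal libraries apart most clearly. Its level was 459 and 231 CPM in the libraries labelled Gpr125-negative, 129 and 126 for the TEB-distal pair, and 276 and 342 for the nipple-proximal pair. Both TEB-distal libraries were below all others, and differed from each other by only 0.03 on the log2 scale. This order held with DESeq2 size factors (TEB-distal libraries up to 132, the others from 253 CPM) and with no scaling beyond the total (up to 135 and from 205 CPM). The fitted log2 fold change was -1.44 for TEB-distal against the libraries labelled Gpr125-negative (SE 0.69, 95% interval -3.04 to 0.16, 2.71-fold lower; adjusted p = 0.848, edgeR's quasi-likelihood test) and -1.28 against the nipple-proximal libraries (SE 0.69, interval -2.88 to 0.32; adjusted p = 1, the same edgeR test). Neither passed the test, and both intervals include no difference. Fosb, its close relative at chr7:19302696-19310051, was the scarcest member. It measured 19.99 and 5.11 CPM in the libraries labelled Gpr125-negative, 8.23 and 14.2 for the TEB-distal pair and 10.7 and 10.2 for the nipple-proximal pair, so that its highest and its lowest value both came from the reference group and all groups overlapped.

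The share of Fos within its family also differed between libraries. Per kilobase of exon, Fos made up 61.5% and 61.3% of the sum of Fos, Fosb, Fosl1 and Fosl2 in the libraries labelled Gpr125-negative, 44.9% and 21.4% for the TEB-distal pair and 43.3% and 53.5% for the nipple-proximal pair. Most of the remainder was Fosl1, which encodes FRA1, a FOS protein without the transactivation domain of FOS: its share was 35.9% and 31% in the libraries labelled Gpr125-negative and 41.0% to 74.6% in the 4 Gpr125+ libraries. The 74.6% was that of Gpr_TEB 2, where Fosl1 reached 379 CPM against 115 in Gpr_TEB 1. Fosl1 therefore varied between replicates more than Fos did in that group. Fosb was at most 1.08% of the family.

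**Figure D2:**
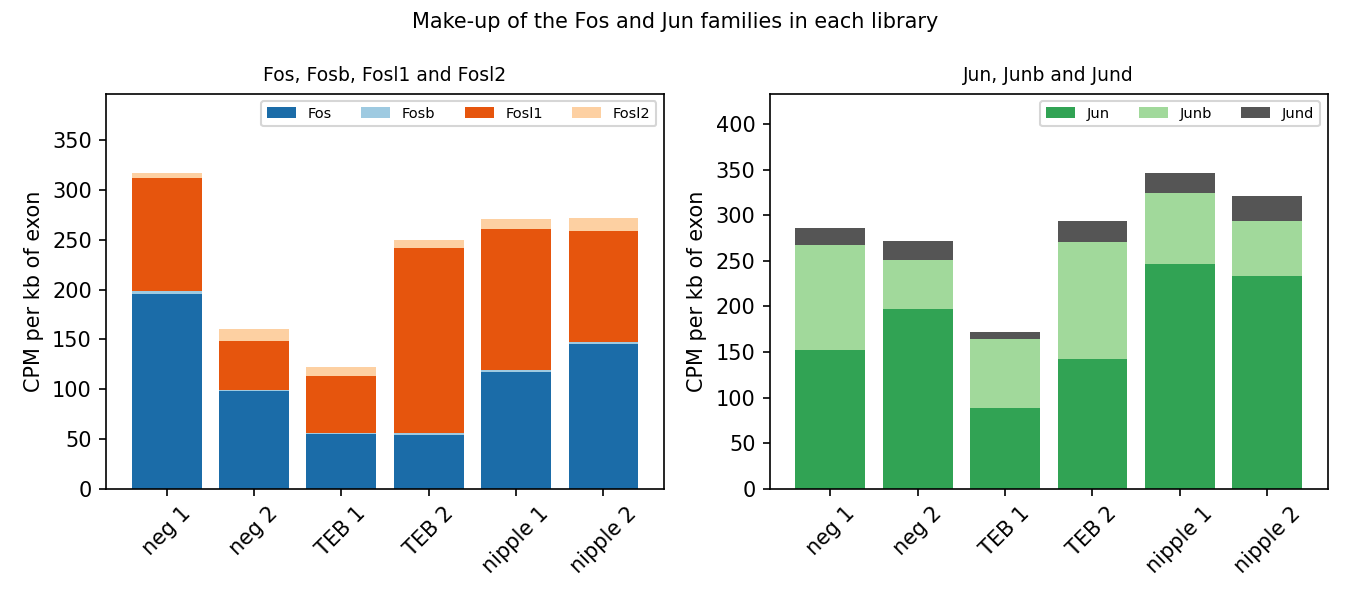
Stacked bars of CPM per kb of exon for the Fos family (left) and the Jun family (right) in each library, where the height of a bar is the family sum. Fos is 61.5% and 61.3% of its family in the libraries labelled Gpr125-negative and 44.9% and 21.4% for the TEB-distal pair, and Jun holds 71.0% and 72.6% of its family for the nipple-proximal pair.

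Jun, the principal partner of FOS in AP-1 (chr4:95049034-95052222), ordered the groups without overlap. It was 283 and 454 CPM for the TEB-distal pair, 486 and 628 in the libraries labelled Gpr125-negative, and 786 and 743 for the nipple-proximal pair. Nipple-proximal libraries were thus highest and TEB-distal libraries lowest for this gene. The log2 fold change between TEB-distal and nipple-proximal cells was -1.05 (SE 0.70, 95% interval -2.66 to 0.56; adjusted p = 1, edgeR's quasi-likelihood test), and the values against the libraries labelled Gpr125-negative were -0.60 for the TEB-distal and 0.46 for the nipple-proximal population. With DESeq2 size factors the nipple-proximal and reference libraries overlapped for Jun, while TEB-distal libraries remained below both groups. The antisense gene Junos covers 232 bases of the Jun exon, and reads of this pair cannot be told apart in counts made without strand.

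Junb, a weaker activator that can also restrain JUN, ran differently from Jun. Its level (chr8:84974484-84978718) was 264 and 124 CPM in the libraries labelled Gpr125-negative, 174 and 294 for the TEB-distal pair, and 179.9 and 139.8 for the nipple-proximal pair, with all groups overlapping. Within a library, where scaling plays no part, the ratio of Junb to Jun counts was 0.613 and 0.648 for the TEB-distal pair and 0.229 and 0.188 for the nipple-proximal pair. The libraries labelled Gpr125-negative spanned that gap, at 0.543 and 0.198. The ratio was formed after both genes had been seen and was given no test. In exons, Junb shares 173 bases with the protein-coding gene Prdx2 on the opposite strand. Jund, the family member that many resting cells express steadily (chr8:70698949-70700616), was 30.9 and 34.7 CPM in the libraries labelled Gpr125-negative, 12.01 and 39.1 for the TEB-distal pair and 37.3 and 45.4 for the nipple-proximal pair. The low value of Gpr_TEB 1 stood apart from the other 5 libraries. Antisense gene Gm11175 covers 877 of the 1668 exon bases of Jund and was listed at 0 counts in all 6 libraries; how the counting treated reads in both is not given in the sources used here. Jun accounted for 48.5% to 72.6% of the 3 Jun genes per kilobase in the 6 libraries, and Jund for 4.20% to 8.48%. These shares divide by all 1668 exon bases of Jund, and understate Jund if reads in the 877 shared bases were not counted.

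Egr1, a zinc-finger factor whose gene is a classical target of the serum response factor, went the other way from Fos. It was 221 and 171 CPM in the libraries labelled Gpr125-negative, 509 and 357 for the TEB-distal pair and 242 and 446 for the nipple-proximal pair. Both libraries labelled Gpr125-negative were below the other 4, although Gpr_nipple 1 was close to the nearer of them. The log2 fold change was 1.14 for TEB-distal cells (SE 0.70, 95% interval -0.48 to 2.77; adjusted p = 0.966, edgeR's quasi-likelihood test) and 0.81 for the nipple-proximal population (SE 0.70, interval -0.80 to 2.43; adjusted p = 1, the same edgeR test). The ratio of Fos to Egr1 counts within a library was 2.08 and 1.36 in the libraries labelled Gpr125-negative, 1.14 and 0.766 for the nipple-proximal pair and 0.253 and 0.353 for the TEB-distal pair. The 3 groups did not overlap in this ratio, which was formed after both genes had been seen and was given no test. Its relatives were lower: per kilobase Egr1 was 67.2% to 89.0% of the sum of Egr1 to Egr4 and Egr2 was 10.7% to 32.8%.

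**Figure D3:**
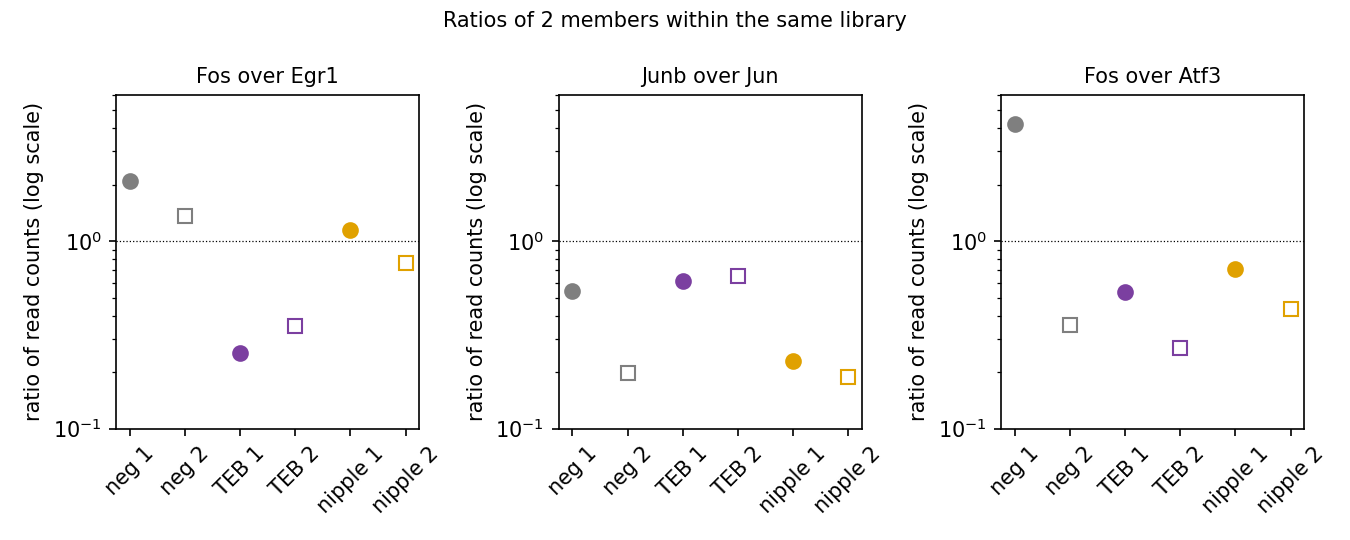
Ratios of read counts of 2 members in the same library (log axis; circles replicate 1, squares replicate 2), which do not depend on normalization. Fos over Egr1 lies at 0.253 and 0.353 for the TEB-distal pair against 0.766 to 2.08 in the other 4, Junb over Jun at 0.613 and 0.648 against 0.188 to 0.543, and Fos over Atf3 is 4.18 in Gpr_neg 1 and at most 0.708 elsewhere. These pairs of genes were chosen after their levels had been seen, and no test was run.

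Atf3, a stress-induced factor of the CREB family that can pair with JUN (chr1:191170296-191218039), was the most variable member, and all groups overlapped. It measured 109.8 and 646 CPM in the libraries labelled Gpr125-negative, 242 and 469 for the TEB-distal pair and 390.4 and 784 for the nipple-proximal pair, a range of 7.14-fold. Replicate 2 was higher in all 3 groups. Jund was the only other member of which this held, so the count was 2 of 10, beside 9.38% of all genes tested; 0 of 10 members and 13.3% of all genes were higher in replicate 1 in all 3 groups. The intervals of Atf3 were accordingly the widest after those of Fosb, for example -2.32 to 2.14 for TEB-distal against the libraries labelled Gpr125-negative around a log2 fold change of -0.09. The ratio of Fos to Atf3 counts set Gpr_neg 1 apart, at 4.18 against 0.269 to 0.708 in the other 5 libraries.

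Ier2, a small nuclear protein of the early response (chr8:84661331-84662852), was 242 and 87.7 CPM in the libraries labelled Gpr125-negative, 229 and 378 for the TEB-distal pair and 196 and 165 for the nipple-proximal pair. Both TEB-distal libraries exceeded both nipple-proximal libraries (log2 fold change 0.75, SE 0.75, 95% interval -0.98 to 2.48; adjusted p = 1, edgeR's quasi-likelihood test), and the nipple-proximal values lay within the span of the reference, while Gpr_TEB 2 lay above it. Its value in Gpr_neg 2 was the lowest of the 6 libraries, as were those of Fosb, Junb and Egr1.

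The feedback genes were the steadiest. Dusp1, the phosphatase that inactivates p38, JNK and ERK, was 409 and 427 CPM in the libraries labelled Gpr125-negative, 312 and 513 for the TEB-distal pair and 601 and 521 for the nipple-proximal pair. Zfp36, the protein (tristetraprolin) that binds AU-rich elements and speeds the decay of cytokine and immediate early mRNAs, was 159 and 135, 124 and 202, and 227 and 175 CPM in the same order of groups. For both genes Gpr_TEB 1 was lowest and Gpr_nipple 1 highest. The highest level was 1.92 times the lowest for Dusp1 and 1.83 times for Zfp36, compared with 2.37 to 7.14 times for the other 8. Their log2 fold changes were -0.02 and 0.15 for the TEB-distal and 0.42 and 0.45 for the nipple-proximal population against the libraries labelled Gpr125-negative, with 95% intervals between -1.59 and 2.00. A difference of 2-fold in either direction lies inside each of these intervals. In exons, Dusp1 shares 11 bases with Ergic1 and Zfp36 shares 125 bases with Gm44710, each on the opposite strand.

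Between TEB-distal Gpr125+ cells and the libraries labelled Gpr125-negative, 0 of the 10 members met the thresholds (2-fold or more, FDR under 0.1), with 0% called among all genes tested. At an unadjusted p under 0.05 edgeR's quasi-likelihood test found 0 of 10, against 6.05% of all genes, and DESeq2 on all 6 libraries called 0 of 10 members and 5.43% of all genes. The groups did not overlap for 3 members (Egr1 above, Fos and Jun below), against 24% of all genes. The median log2 fold change of the members was -0.05 and that of all genes 0.03. The 12 endothelial markers all had log2 fold changes below 0 here, with a median of -5.85, and 10 of the 12 were called by DESeq2 on all 6 libraries; their part in the values of Fos, Jun and Egr1 was not tested.

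Between nipple-proximal Gpr125+ cells and the same reference libraries, 0 of 10 members were called, with 0% of all genes. The count at an unadjusted p under 0.05 was 0 of 10 by edgeR, against 3.55% of all genes, and DESeq2 on all 6 libraries called 0 of 10 members and 1.98% of all genes. Jun, Jund, Egr1, Dusp1 and Zfp36 were above in both libraries without overlap, 5 members against 19.9% of all genes (30.6% in either direction). This count rested on the scaling: with DESeq2 size factors, which moved the median log2 fold change of all genes by -0.16, Egr1, Dusp1 and Zfp36 remained (3 members, 16.7% of all genes), and with library totals Jun alone (1 member, 15.4%). The members' median log2 fold change was 0.38, or 0.21 with DESeq2 size factors.

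Between the TEB-distal and nipple-proximal Gpr125+ populations, which were sorted alike from different parts of the gland, 0 of 10 members were called, with 0% of all genes, and 0 of 10 had an unadjusted p under 0.05 by edgeR's quasi-likelihood test, against 2.21% of all genes. DESeq2 on all 6 libraries called 0 of 10 members and 0.743% of all genes. Groups did not overlap for Ier2, which was higher for the TEB-distal pair, and for Fos, Jun and Dusp1, which were lower, 4 members against 33.5% of all genes. Fos, Jun and Ier2 kept this under both other scalings, Dusp1 under neither, and Junb joined Ier2. The median log2 fold change of the 10 was -0.37, against 0.06 for all genes. Without Gpr_TEB 1 it was 0.03 and without Gpr_TEB 2 it was -0.79, so that the members' median depends on which TEB-distal library is used: 8 of the 10 were lower in Gpr_TEB 1 than in Gpr_TEB 2. Fibroblast markers moved with this contrast: 8 of the 10 had a log2 fold change above 0, with a median of 2.39, 6 were higher in both TEB-distal libraries without overlap, and DESeq2 called 3 on the 4 libraries and 0 on all 6. Col1a2, for example, was 12.7 and 27.1 CPM in TEB-distal and 2.16 and 3.44 in nipple-proximal libraries. Their part in the values of the members, and of the Mmp3 and Mmp10 genes given further on, was not tested.

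**Figure D4:**
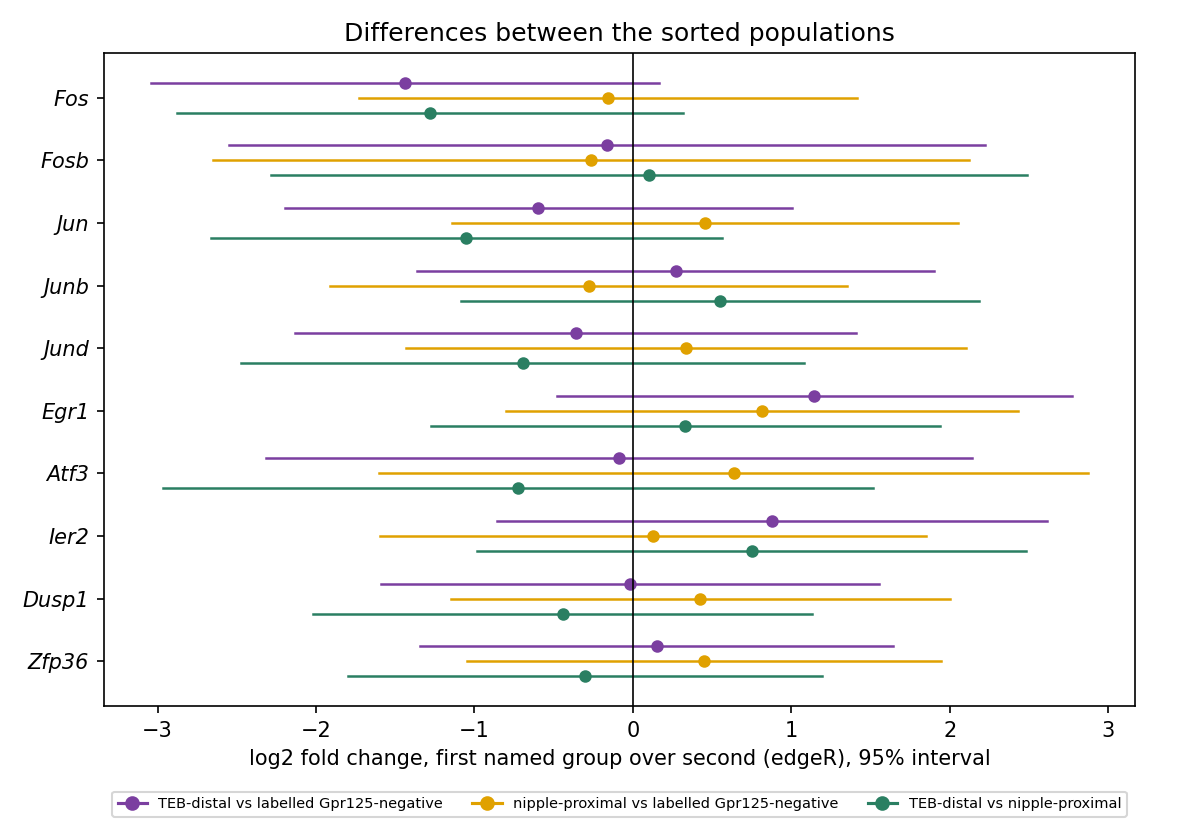
Fitted log2 fold changes of the 10 genes (points) with 95% intervals (lines) from edgeR, each the first named group over the second, for the 3 comparisons. Every interval crosses 0; that of Fos for TEB-distal cells against the libraries labelled Gpr125-negative runs from -3.04 to 0.16, and that of Egr1 from -0.48 to 2.77.

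The 10 genes did not move as a block over the 6 libraries. Of the 45 pairs, 30 had a Pearson correlation of log2 CPM above 0, with a median of 0.19 and a range from -0.61 (Fosb with Atf3) to 0.914 (Dusp1 with Zfp36). A run of high values joined Jun, Jund, Dusp1 and Zfp36 (Jund with Dusp1 0.871, Jun with Jund 0.858, Jun with Dusp1 0.845), and another joined Fosb, Junb and Ier2 (Junb with Ier2 0.891, Fosb with Junb 0.853, Fosb with Ier2 0.779). Fos was nearest to Jun (0.608), and Egr1 to Ier2 (0.496). These are descriptions over 6 libraries that share depth, composition and scaling between genes, and carry no test. The genes most like the mean log2 level of the 10 members were Tbc1d9 (r = 0.996 over 6 libraries), Ticam1 (0.994), Tubb6 (0.992), Arid3a (0.991) and Fam71d (0.991), out of all tested genes outside the lists. Fam71d was at less than 1 CPM throughout. Picked as the highest of so many genes over 6 libraries, such r values can follow from the selection alone.

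**Figure D5:**
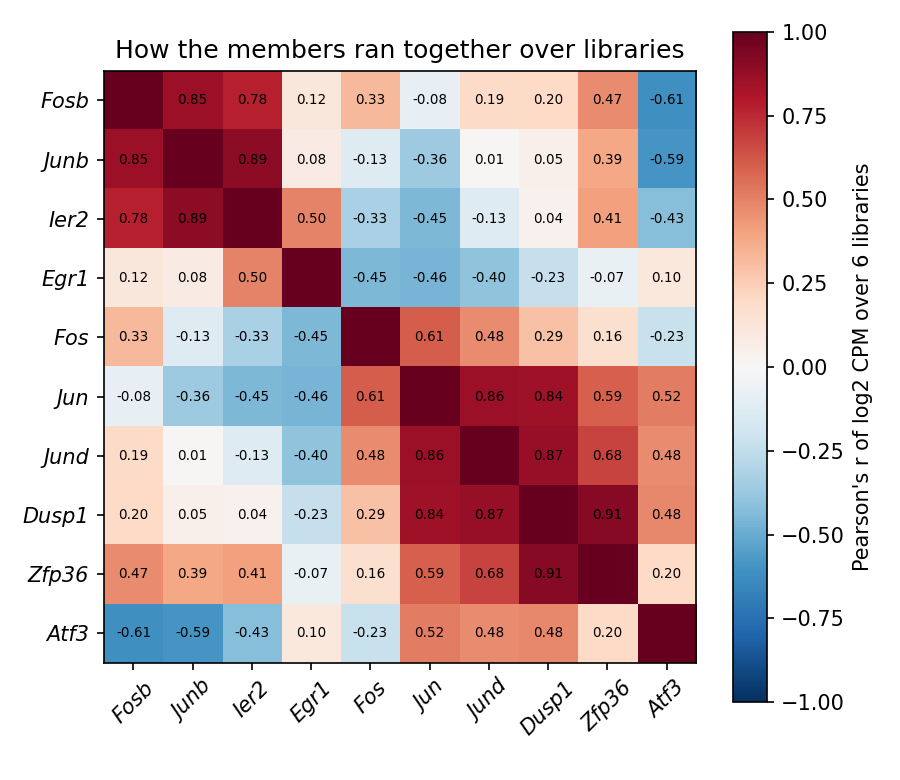
Pearson correlation of log2 CPM over the 6 libraries for every pair of the 10 genes (red positive, blue negative), ordered by hand to bring like genes together. Dusp1 and Zfp36 reach 0.91, Junb and Ier2 0.89, and Fosb and Atf3 stand at -0.61.

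Another 45 immediate early genes were followed as the wider programme, of which 44 were tested and 0 called in any comparison by edgeR's quasi-likelihood test. Their median log2 fold change was 0.33 for the TEB-distal and 0.07 for the nipple-proximal population against the libraries labelled Gpr125-negative, and 31 of the 44 were above 0 in the former. At the top was Egr3, another EGR factor, with 33 and 0 counts for the libraries labelled Gpr125-negative, 227 and 68 for the TEB-distal pair and 39 and 95 for the nipple-proximal pair. Its log2 fold changes, 3.94 and 3.14, rest on a reference close to 0. At the bottom were Klf2 (log2 fold change -2.64) and Ptgs2 (-2.15), the latter encoding the inducible cyclooxygenase, at 22.2 and 369 CPM in the 2 reference libraries and 19.5 to 79.2 in the other 4. DESeq2 called Egr4 for TEB-distal cells (adjusted p = 0.00292, all 6 libraries), which had 290 counts in Gpr_TEB 2, 4 in Gpr_TEB 1 and 0 in both reference libraries, so that the call rests on 1 library.

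Upstream of the members, the list of 22 genes for MAP kinases, their kinases, the serum response factor, its partners and CREB gave 0 calls in each comparison by edgeR's quasi-likelihood test and 0 by DESeq2, and 0 had an unadjusted p under 0.05. Srf itself was 21.0 and 17.5 CPM in the libraries labelled Gpr125-negative, 11.2 and 49.8 for the TEB-distal pair and 38.0 and 37.5 for the nipple-proximal pair. Creb1 was 23.9 and 127 CPM, 98.4 and 25.5, and 60.5 and 101 in the same order, so replicates of 1 group differed more than groups did. Of 14 other genes of AP-1 and related bZIP proteins, 13 were tested and 0 were called by edgeR or DESeq2 in any comparison.

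Downstream, 16 genes known as AP-1 targets were listed, and 15 were tested, with 0 called by edgeR's quasi-likelihood test in any comparison. DESeq2 called Mmp10, Mmp3 and Spp1 in at least 1 comparison. Mmp10, stromelysin 2, was at 0 counts in both libraries labelled Gpr125-negative, 361 and 183 for the TEB-distal pair and 17 and 13 for the nipple-proximal pair. Its level for the TEB-distal pair was at least 122-fold higher than the mean of 3 counts per reference library, and DESeq2 on all 6 libraries gave an adjusted p of 1.84e-06. On its 17 and 13 counts, Mmp10 was also called for nipple-proximal cells against the reference (log2 fold change 7.02, adjusted p = 0.0233, DESeq2 on all 6 libraries). DESeq2 on the 4 libraries called it between the Gpr125+ populations (log2 fold change 3.86, adjusted p = 0.0103), and DESeq2 on all 6 did not. Mmp13, collagenase 3, had a log2 fold change of -2.22 for TEB-distal cells against the reference, with overlapping groups (adjusted p = 1, edgeR). Mmp3, stromelysin 1, was 165 and 190.1 CPM for the TEB-distal pair and 42.1 and 51.2 for the nipple-proximal pair, with 129.6 and 200.4 in the reference; DESeq2 on the 4 libraries called the first difference (log2 fold change 1.98, adjusted p = 0.0749) but DESeq2 on all 6 did not. Spp1, osteopontin, was 798 and 60.9 CPM in the libraries labelled Gpr125-negative, 1720 and 50.8 for the TEB-distal pair and 4.81 and 8.00 for the nipple-proximal pair. It was called lower in nipple-proximal cells than in either other group by DESeq2 on all 6 libraries (adjusted p = 0.00897 and 0.00106), although replicate 1 far exceeded replicate 2 in both other groups.

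Heat shock genes, another set known to respond to handling of cells, differed from the members in the gap between the reference libraries' sums. The sum over 11 of them was 17318 CPM in Gpr_neg 1 and 69776 in Gpr_neg 2, a ratio of 4.03. For the sums of the 10 members the ratio was 1.04. That value hides opposite moves of single members: Atf3 was 109.8 and 646 CPM, while 6 of the 10 were higher in Gpr_neg 1. It also rests on TMM factors, as the members' shares of all counts were 0.299% and 0.221%. Each of the 11 heat shock genes was higher in Gpr_neg 2. Hspa1b was at 1260 and 19834 CPM, Hsp90aa1 at 964 and 8348, and Hspa1a at 429 and 7031. Hspa1a and Hspa1b are near-identical copies, so the split of reads between them is uncertain. The sums were 39926 and 50209 CPM for the TEB-distal pair and 28780 and 33279 for the nipple-proximal pair. Within each pair replicate 2 had the higher sum, as it did for the members with TMM factors. As shares of all counts, the members' sums were higher in replicate 1 for the reference and nipple-proximal pairs. Of the 11 heat shock genes, 3 were higher in replicate 2 in all 3 groups. All 11 had a log2 fold change above 0 for TEB-distal against nipple-proximal cells, with a median of 0.59, and 0 were called by edgeR's quasi-likelihood test or by DESeq2.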

How the data were processed

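Libraries were made with SMART-Seq HT and no molecular identifiers. The authors' aligner was STAR (v2.5.0c in the paper's methods, 2.7.3 in the submitters' processing notes, which also list CASAVA), with mm10 as the genome; HTSeq (v0.6.0) then gave unstranded gene counts, which the authors deposited raw. The annotation release is not given in the sources used here.

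Counts were normalized by TMM and tested with edgeR 4.0.16 (R 4.3.3; filterByExpr, quasi-likelihood, robust, all 6 libraries in a model of 3 groups, 17268 genes, Benjamini-Hochberg adjustment). Calls needed an FDR under 0.1 and at least 2-fold, the study's thresholds. DESeq2 1.42.0, other scalings and filters, a replicate block, and leaving out each library were alternatives. The prior count of log2 CPM was 2. Errors and 95% intervals came from the F statistic. Floors cover counting error only.

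Exon lengths and overlaps are from GENCODE M21 (GRCm38, the same build as mm10). The text names all 10 members with their family relatives, the highest, lowest or called genes of the other lists, and the 5 genes with the closest pattern. Members and lists were chosen with earlier results of these data known.

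The biological coefficient of variation was 0.967 over all genes and 0.498 to 0.775 for members. On simulated counts for TEB-distal against the libraries labelled Gpr125-negative, edgeR recovered 0.5% of 200 genes changed 4-fold and 57% changed 64-fold; DESeq2 recovered 13% and 77%, with 231 and 222 calls in an unchanged comparison. The smallest exact permutation p of 2 against 2 libraries is 0.333. Same-numbered libraries deviated with correlations of -0.0347, 0.194 and -0.00495 across genes in the 3 comparisons, so replicate numbers were not taken as pairs.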

Additional observations from a re-analysis of the deposited data

Results flagged for a closer look

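Jun was singled out because both TEB-distal libraries lay below, and both nipple-proximal libraries above, both libraries labelled Gpr125-negative. With DESeq2 size factors the nipple-proximal libraries overlapped the reference, so this order depends on the scaling. The log2 fold change of TEB-distal over nipple-proximal cells was -1.05 (SE 0.70, 95% interval -2.66 to 0.56; adjusted p = 1, edgeR's quasi-likelihood test), which is the test of the difference between the 2 effects, since they share the reference. It did not pass the threshold, and groups of 2 libraries are too small for a check of single outlying samples. Groups did not overlap for 24% of all genes between TEB-distal and reference libraries and for 30.6% between nipple-proximal and reference libraries. Between the Gpr125+ populations the share was 33.5%. The share of genes with the full order of Jun was not counted.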

How the results depend on the processing

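No member was called by edgeR's quasi-likelihood test or DESeq2 in any comparison under any alternative run. Counts of called genes among all genes did change, from 0 in the fit as reported. DESeq2 on all 6 and on the 4 compared libraries called 943 and 667 genes for TEB-distal and 321 and 317 for nipple-proximal cells against the libraries labelled Gpr125-negative, and 129 and 360 between the Gpr125+ populations; with all genes of at least 1 count, edgeR called 137, 58 and 39. Leaving out a library gave 0 to 747, 0 to 335 and 0 to 12, the highest without Gpr_neg 1, without Gpr_neg 1 and without Gpr_nipple 2. The summed mean of the members in the libraries labelled Gpr125-negative was 2570 CPM with DESeq2 size factors and 2601 with library totals. The members' median log2 fold change ran from -0.52 to 0.28 for TEB-distal against reference cells, and from -0.79 to 0.028 for TEB-distal against nipple-proximal cells, on leaving out libraries. DESeq2 size factors moved the median of all genes by -0.03, -0.16 and 0.13. With the replicate block, Fosb and Atf3 turned to 0.0061 and 0.27 for TEB-distal cells and 0 members were called; it changed no other direction of a member. Ier2 for nipple-proximal cells turned to -0.016 with DESeq2 on 6 libraries and -0.012 with DESeq2 size factors. Leaving out libraries turned these log2 fold changes, given as lowest and highest. For TEB-distal against reference cells they were -0.84 to 1.01 for Fosb, -0.18 to 0.79 for Junb, -1.45 to 0.24 for Jund, -0.98 to 1.69 for Atf3, -0.43 to 0.28 for Dusp1 and -0.25 to 0.45 for Zfp36. For nipple-proximal against reference cells they were -0.57 to 0.28 for Fos, -0.93 to 0.90 for Fosb, -0.72 to 0.23 for Junb, -0.28 to 2.42 for Atf3 and -0.42 to 0.91 for Ier2. Between the Gpr125+ populations they were -0.36 to 0.51 for Fosb, -0.050 to 0.82 for Egr1 and -0.71 to 0.070 for Zfp36. The causes were not tested. Fos, Jun, Egr1 and Ier2 kept their direction for TEB-distal against reference cells in these fits. The scaling of counts of groups without overlap was tried after the data were seen. With 2 libraries per group, 95% intervals of about 3 to 5 log2 units per member limit what a missed threshold can say.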
